A study of Homo sapiens with 6 samples.

Results

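Genes of proton and bicarbonate handling were followed in cells labelled HepG2, an established human hepatoma line, after knockdown of ARHGEF2. Of the 27605 genes in the expression table, 7 were described. They were chosen by gene name, with the fall of CA9 in these libraries already known: the carbonic anhydrases CA9, CA12, CA2 and CA13, the bicarbonate transporters SLC4A2 and SLC4A7, and basigin (BSG). The shNC group (3 libraries, genotype given as WT) came from cells with a control hairpin, and the shARHGEF2 group (3 libraries, genotype given as ARHGEF2 knockdown) from cells that received lentivirus against ARHGEF2. Neither the number of hairpins behind the shARHGEF2 group nor the use of separate cultures is given in the labels, so the p-values measure only the spread between these libraries, which may be technical. Expression was measured by poly(A) RNA sequencing as FPKM, fragments scaled to transcript length and library size, a scale on which levels of different genes can be set side by side.

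Carbonic anhydrases convert carbon dioxide and water to bicarbonate and a proton, and back. CA9 and CA12 are anchored in the plasma membrane with the active site outside the cell, whereas CA2 and CA13 work in the cytosol. SLC4A2 exchanges bicarbonate for chloride, SLC4A7 carries sodium and bicarbonate into the cell, and basigin is the chaperone that brings the proton-coupled lactate transporters SLC16A1 and SLC16A3 to the surface. CA9 is a textbook target of HIF, the transcription factor of the hypoxic response, whose binding element contains the letters ACGTG.

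These letters, read on either strand, are found in RefSeq promoter windows of CA9, of the exchanger SLC4A2 and of BSG (GRCh38.p14, 250 bases before to 50 after each RefSeq start). RefSeq lists several starts for some genes, and those used for CA9, SLC4A2 and BSG lie downstream of the outermost GENCODE 29 starts given with each gene's position, so the stretches shown fall inside the GENCODE bounds of these 3 genes. The 30 bases around 1 match of each are shown on the + strand because these 3 genes are the most highly expressed of the 7. Beside them stands DDIT4, a stress-induced inhibitor of mTOR signalling and HIF target described further on. DDIT4 was called lower in shARHGEF2, so showing it is not independent of the contrast. Capitals mark the match, and where both strands match, the 6 letters they cover together.
CA9, chr9:35673898-35673927: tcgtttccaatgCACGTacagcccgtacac
SLC4A2, chr7:151062563-151062592: gcccagaggggCACGTGactgggaaggggc
BSG, chr19:572392-572421: caacgccgggtCACGTGcgccgccgcccgg
DDIT4, chr10:72273787-72273816: agaacgttgcttACGTGcgcccggagtcca

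The match lay 18 bases before the RefSeq start at 35673928 in CA9, 67 before the start at 151062642 in SLC4A2, 192 before the start at 572596 in BSG and 125 before the start at 72273924 in DDIT4. Of all 35116 RefSeq promoter windows, 21.4% held ACGTG on either strand. By gene, 24.9% of the 27305 genes with an entry held it in at least 1 window. CA2 and CA13 had no entry and could not be searched. The letters were found in 2 of the 4 windows of SLC4A2 and in 1 of the 2 of BSG. The 1 window of CA12 and the 2 of SLC4A7 did not hold them, but the other form of the element, GCGTG, was in the CA12 window and in 1 of the SLC4A7 windows. Either form was in 48.4% of all windows and, by gene, in a window of 52.4% of the genes with an entry. In the stretches of SLC4A2 and BSG the match was part of CACGTG, which reads the same on both strands. In those of CA9 and DDIT4 it was not. A match is a description of the sequence and does not name the factor that binds, since binding was not measured in these samples.

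ARHGEF2 itself was measured first. Its level was 13, 14.4 and 13.9 FPKM in the 3 shNC libraries and 4.25, 4 and 4.82 FPKM in the 3 shARHGEF2 libraries. It fell by 1.47 on the log2(FPKM + 1) scale (SE 0.11, limma adjusted p = 0.00244), and this scale understates the change of weakly expressed genes. With no filter beyond a value above 0 the difference was the same and the limma adjusted p was 0.0701. The keratins of the epithelial marker list were high, with KRT8 from 107 to 202 FPKM, while EPCAM and CDH1 did not exceed 0.0547 FPKM. Of 18 hepatocyte markers 11 were listed, and vitronectin (VTN, 5.51 to 6.6 FPKM) was the only one with a mean of at least 0.5 FPKM, RBP4 reaching 0.907 FPKM in 1 library. AFP, SERPINA1 and HNF4A, liver genes that HepG2 cells are known to express, did not exceed 0.0956 FPKM in any of the 6 libraries, so these 3 markers were nearly absent, which goes against the label, while VTN was present in all 6. The study's methods state that its cell line was authenticated. The other 7, ALB, APOB, APOH, TF, TTR, FGB and AHSG, were not analysed here. The summed level of the listed hepatocyte markers was 6.02 to 6.24 FPKM in shNC and 6.72 to 7.7 FPKM in shARHGEF2. The summed fibroblast markers (4 of 4 listed, COL1A1 leading) stood at 8.89 to 9.63 and 10.4 to 11.9 FPKM, the endothelial markers (3 of 4 listed) at 0.561 to 0.64 and 0.775 to 0.866 FPKM, the leukocyte markers (4 of 4 listed, nearly all CD68, with PTPRC, CD3E and LYZ at or below 0.0737 FPKM) at 60.5 to 87.8 and 75.1 to 85.6 FPKM, and the epithelial markers (5 of 5 listed) at 354 to 458 and 335 to 419 FPKM. The sums of the hepatocyte, fibroblast and endothelial lists were thus higher in every shARHGEF2 library than in any shNC library. They rested largely on VTN, on COL1A1 (6.08 to 6.81 and 8.12 to 9.6 FPKM) and on PECAM1 (0.539 to 0.606 and 0.76 to 0.854 FPKM). The other fibroblast markers tested, PDGFRB and DCN, overlapped between the groups, so the sums do not describe whole cell types. The part of these markers in the results was not tested. In bulk libraries, a change in how many cells express a gene and a change in its RNA per cell cannot be told apart.

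CA9, on chromosome 9 (35673856 to 35681159, + strand, GRCh38), was by far the most highly expressed carbonic anhydrase. Its level was 201, 199 and 209 FPKM in shNC and 135, 131 and 136 FPKM in shARHGEF2. The 3 knockdown libraries lay close together and below every control library. The means were 203 ± 5.48 and 134 ± 2.56 FPKM (SD, n = 3 each), a ratio of 0.66 and a fitted difference of -0.60 (SE 0.07) on the log2(FPKM + 1) scale. Since the genes were chosen from this contrast, these values are given as a description, with no test.

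CA12, the other membrane-anchored enzyme, is on chromosome 15 (63321378 to 63382161, - strand). It was measured at 3.05, 3.85 and 2.82 FPKM in shNC and at 3.12, 3.09 and 3.7 FPKM in shARHGEF2, so the groups overlapped. The fitted difference was 0.03 (SE 0.13), and its sign depended on which library was left out. CA9 stood at 51.6 to 74.3 times the level of CA12 within the shNC libraries and at 36.6 to 43.4 times within the shARHGEF2 libraries.

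The cytosolic enzymes were expressed near the lower limit of what was tested, a mean of 0.5 FPKM. CA2, on chromosome 8 (85463852 to 85481493, + strand), was at 0.702, 0.331 and 0.286 FPKM in shNC and at 0.414, 0.677 and 0.568 FPKM in shARHGEF2. Its mean over the 6 libraries, 0.496 FPKM, fell just short of the limit. CA13, on the same chromosome (85220587 to 85284073, + strand), was at 0.155, 0.266 and 0.109 FPKM in shNC and at 0.119, 0.271 and 0.304 FPKM in shARHGEF2. Both genes overlapped between the groups and were not tested, which leaves 5 of the 7 genes in the fit.

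**Figure D1:**
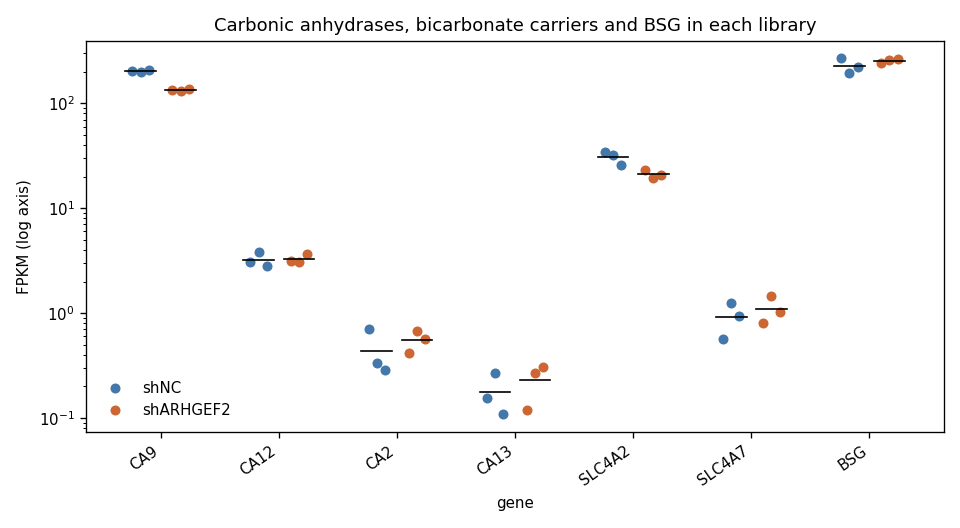
FPKM (log axis) of the 7 genes in the 3 shNC and 3 shARHGEF2 libraries, 1 point per library with a bar at the group mean. CA9 (131 to 136 against 199 to 209 FPKM) and SLC4A2 (19.6 to 23.1 against 25.8 to 34.5 FPKM) were lower in every shARHGEF2 library, as were 9.17% of all genes tested, while the groups overlapped for the other 5 genes.

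SLC4A2, on chromosome 7 (151057210 to 151076527, + strand), was the second of the 7 genes whose groups did not overlap. Of all genes tested, 9.17% were likewise lower in every shARHGEF2 library than in any shNC library. It was measured at 34.5, 32.4 and 25.8 FPKM in shNC and at 23.1, 19.6 and 20.9 FPKM in shARHGEF2. All shARHGEF2 libraries lay below the lowest control, shNC replicate 3, which stood apart from the other 2 controls. The means were 30.9 ± 4.58 and 21.2 ± 1.79 FPKM (SD, n = 3 each), a ratio of 0.686, and the fitted difference was -0.51 (SE 0.13).

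SLC4A7, on chromosome 3 (27372721 to 27484420, - strand), was measured at 0.569, 1.24 and 0.94 FPKM in shNC and at 0.808, 1.45 and 1.03 FPKM in shARHGEF2. The groups overlapped, and in both of them the library numbered 2 was highest and the library numbered 1 lowest. The fitted difference was 0.13 (SE 0.17). Its listed transcripts had the lowest GC content of the 7 genes, 38.6%, against a median of 51.2% over the genes tested. With the trend on GC content removed from each library the difference was 0.16.

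BSG, on chromosome 19 (571277 to 583493, + strand), was the most highly expressed of the 7 on average. It was measured at 268, 196 and 220.1 FPKM in shNC and at 241, 259.5 and 267 FPKM in shARHGEF2. The shNC range enclosed the shARHGEF2 range, and shNC replicate 1 held the highest value of all. The means were 228 ± 36.9 and 256 ± 13.3 FPKM (SD, n = 3 each), and the fitted difference was 0.18 (SE 0.12).

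**Figure D2:**
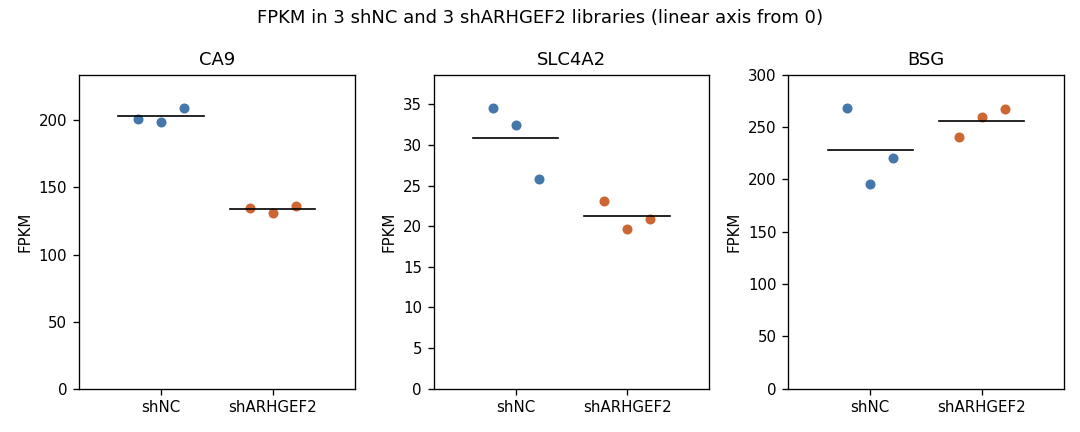
FPKM on a linear axis from 0 for CA9, SLC4A2 and BSG, 1 point per library with a line at the group mean (3 shNC and 3 shARHGEF2 libraries). The shARHGEF2 points of CA9 and SLC4A2 lie below all shNC points, whereas the shNC points of BSG, 196 to 268 FPKM, spread wider than its shARHGEF2 points.

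By mean level the order in shNC was BSG, CA9, SLC4A2, CA12, SLC4A7, CA2 and CA13. In shNC the ranges of BSG and CA9 overlapped, as did those of SLC4A7 and CA2, and the other neighbours in this order did not overlap. In shARHGEF2 the order was the same, and no neighbours overlapped. CA9 stood at 0.75 to 1.02 times the level of BSG in the shNC libraries and at 0.505 to 0.561 times in the shARHGEF2 libraries. Among all 27605 genes ranked by FPKM, CA9 took ranks 190 to 208 in shNC and 302 to 319 in shARHGEF2, and BSG ranks 156 to 195 and 146 to 160.

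In the limma fit 34 of the 12291 genes tested were called at an adjusted p under 0.05 (0.277%), 24 higher and 10 lower in shARHGEF2, the lower ones being 0.0814% of the genes tested. Of the 5 genes of the set that were tested, CA9 was called. CA9 and SLC4A2 were the 2 genes with an unadjusted p under 0.05, which 13.7% of all genes had, and the 2 whose shARHGEF2 values all lay below the shNC values, which 9.17% of all genes showed. Nothing is read from these counts, because the contrast had been used to choose the genes. Leaving out any library other than shNC replicate 3 ended the CA9 call, whereas its fitted difference stayed between -0.61 and -0.57. The fitted difference of SLC4A2 ran from -0.64 without shNC replicate 3 to -0.43 without shNC replicate 1.

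**Figure D3:**
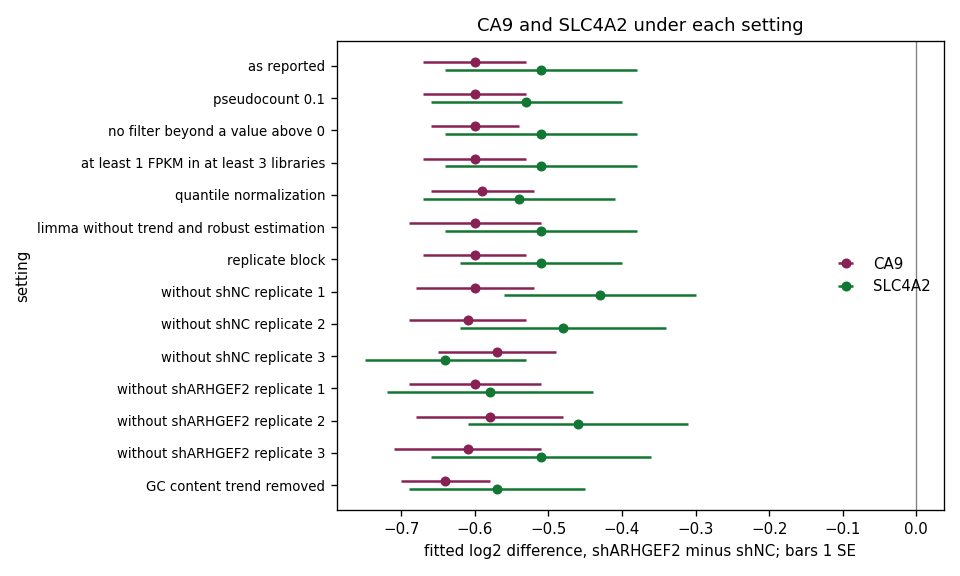
Fitted log2 difference (shARHGEF2 minus shNC, of log2(FPKM + 1) except at a pseudocount of 0.1) of CA9 and SLC4A2 under each processing setting, with bars of 1 SE. All CA9 values lie between -0.64 and -0.57, and those of SLC4A2 between -0.64 and -0.43.

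Within each library, CA9 made up most of the carbonic anhydrase RNA. It held 93.3% to 93.5% of the summed FPKM of the 10 listed carbonic anhydrases in shNC and 88.8% to 90.2% in shARHGEF2. The sum was 213 to 224 FPKM in the shNC libraries and 148 to 151 FPKM in the shARHGEF2 libraries. Without CA9 the other 9 summed to 14.2 to 14.6 and 14.7 to 16.6 FPKM. Of the 6 listed family members outside the set, 2 had a mean of at least 0.5 FPKM, and neither passed the test. CA11, a relative thought to lack catalytic activity, had 9.32 ± 0.849 FPKM in shNC and 10.1 ± 0.633 FPKM in shARHGEF2 (SD, n = 3 each; log2 difference 0.10, SE 0.11, limma adjusted p = 0.738). CA5B, a mitochondrial enzyme, had 0.949 ± 0.175 and 1.29 ± 0.231 FPKM (SD, n = 3 each; 0.23, SE 0.13, limma adjusted p = 0.459). The other 4, CA4, CA5A, CA7 and CA14, did not exceed 0.255 FPKM in any library.

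Several of the genes share sequence with a neighbour on the opposite strand, and whether the counting used strand is not given in the sources used here. CA9 shares 2011 bases with ARHGEF39, which had 3.04 ± 0.367 FPKM in shNC and 2.6 ± 0.195 FPKM in shARHGEF2 (SD, n = 3 each), a small level beside that of CA9. TPM2, the next gene downstream without overlap, had 139 ± 12.2 and 129 ± 10.5 FPKM, with overlapping groups. SLC4A2 shares 1321 bases with CDK5, whose levels were 13.7 ± 1.22 and 15.4 ± 0.81 FPKM, also with overlapping groups. SLC4A2 also shares 1786 bases with the antisense gene AC010973.2 and BSG shares 952 bases with AC009005.1, both not analysed here, so that their reads cannot be told apart if strand was not used. CA2 shares 1064 bases with the antisense gene CA3-AS1, which did not exceed 0.0364 FPKM.

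The wider machinery of pH control was described with 78 further genes, of which 65 were listed and 36 tested. None was called by limma. At an unadjusted p under 0.05 there were 6 (16.7%, against 13.7% of all genes tested), 5 of them higher and 1 lower in shARHGEF2. The median log2 difference of the 36 genes was 0.02 beside 0.00 over all genes, and the range ran from -0.30 to 0.52. Fitted differences were above 0 for 22 and below 0 for 14. In 6 genes (16.7%) all shARHGEF2 values lay above the shNC values, against 11.3% of all genes, and in 1 (2.78%) they all lay below, against 9.17% of all genes. The smallest adjusted p was 0.173.

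Among the transporters, 3 of 10 listed genes of the SLC4 and SLC26 families outside the set were tested. They were grouped by family and not by what each protein carries. SLC26A6, which exchanges anions including bicarbonate, had 5.11, 5.4 and 6.04 FPKM in shNC and 7.59, 7.04 and 7.2 FPKM in shARHGEF2 (log2 difference 0.35, SE 0.11, limma adjusted p = 0.223). SLC4A11 had 2.71, 2.92 and 2.89 FPKM in shNC and 3.75, 3.55 and 3.56 FPKM in shARHGEF2 (0.27, SE 0.11, limma adjusted p = 0.327). The groups of both genes did not overlap, in the direction opposite to SLC4A2, and neither passed the test. Of all genes tested, 11.3% were likewise higher in every shARHGEF2 library than in any shNC library. SLC4A3, an exchanger of the same family as SLC4A2, showed overlapping groups and a difference of 0.09 (SE 0.14, limma adjusted p = 0.839).

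Sodium-proton exchangers export protons. Of 13 listed genes for these exchangers and their cofactors 9 were tested, 6 fitted higher and 3 lower. SLC9A5 had 1.62 ± 0.431 FPKM in shNC and 2.71 ± 0.111 FPKM in shARHGEF2 (SD, n = 3 each), a log2 difference of 0.52 (SE 0.14, limma adjusted p = 0.173). SLC9A8, an exchanger of the Golgi, had 3.63 ± 0.0916 and 2.79 ± 0.492 FPKM (SD, n = 3 each), a difference of -0.30 (SE 0.13, limma adjusted p = 0.364). It was the 1 gene of the wider list with all shARHGEF2 values below the shNC values. The scaffold SLC9A3R1 had a difference of 0.21 (SE 0.11, limma adjusted p = 0.427).

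The lactate transporter SLC16A3, a partner of basigin, had 111, 105 and 114 FPKM in shNC and 128, 119.6 and 144 FPKM in shARHGEF2. The shARHGEF2 values all lay above the shNC values, as those of 11.3% of all genes tested did. The log2 difference of 0.23 (SE 0.09) did not pass the test (limma adjusted p = 0.323). SLC16A1, the other partner tested, had a difference of -0.01 (SE 0.15, limma adjusted p = 0.990), with 8.24 to 12.3 FPKM in shNC and 8.59 to 10.9 FPKM in shARHGEF2. BSG stood at 1.86 to 2.41 times the level of SLC16A3 in the shNC libraries and at 1.86 to 2.17 times in the shARHGEF2 libraries.

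The V-ATPase pumps protons into lysosomes and other compartments. Of its 24 listed subunits and accessory proteins 18 were tested, with 8 fitted higher, 10 lower and a median log2 difference of -0.01. The smallest p-values belonged to the accessory protein ATP6AP1 (0.23, SE 0.11, limma adjusted p = 0.395), the membrane subunit ATP6V0E1 (-0.22, SE 0.11, limma adjusted p = 0.400) and the catalytic subunit ATP6V1A (-0.29, SE 0.18, limma adjusted p = 0.524). Of the proton sensors and channels 7 were listed and 2 tested. ASIC3, a proton-gated channel, had 1.08 ± 0.155 FPKM in shNC and 1.69 ± 0.17 FPKM in shARHGEF2 (SD, n = 3 each; 0.38, SE 0.12, limma adjusted p = 0.223). For its relative ASIC1 the difference was 0.00 (SE 0.19, limma adjusted p = 0.997).

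**Figure D4:**
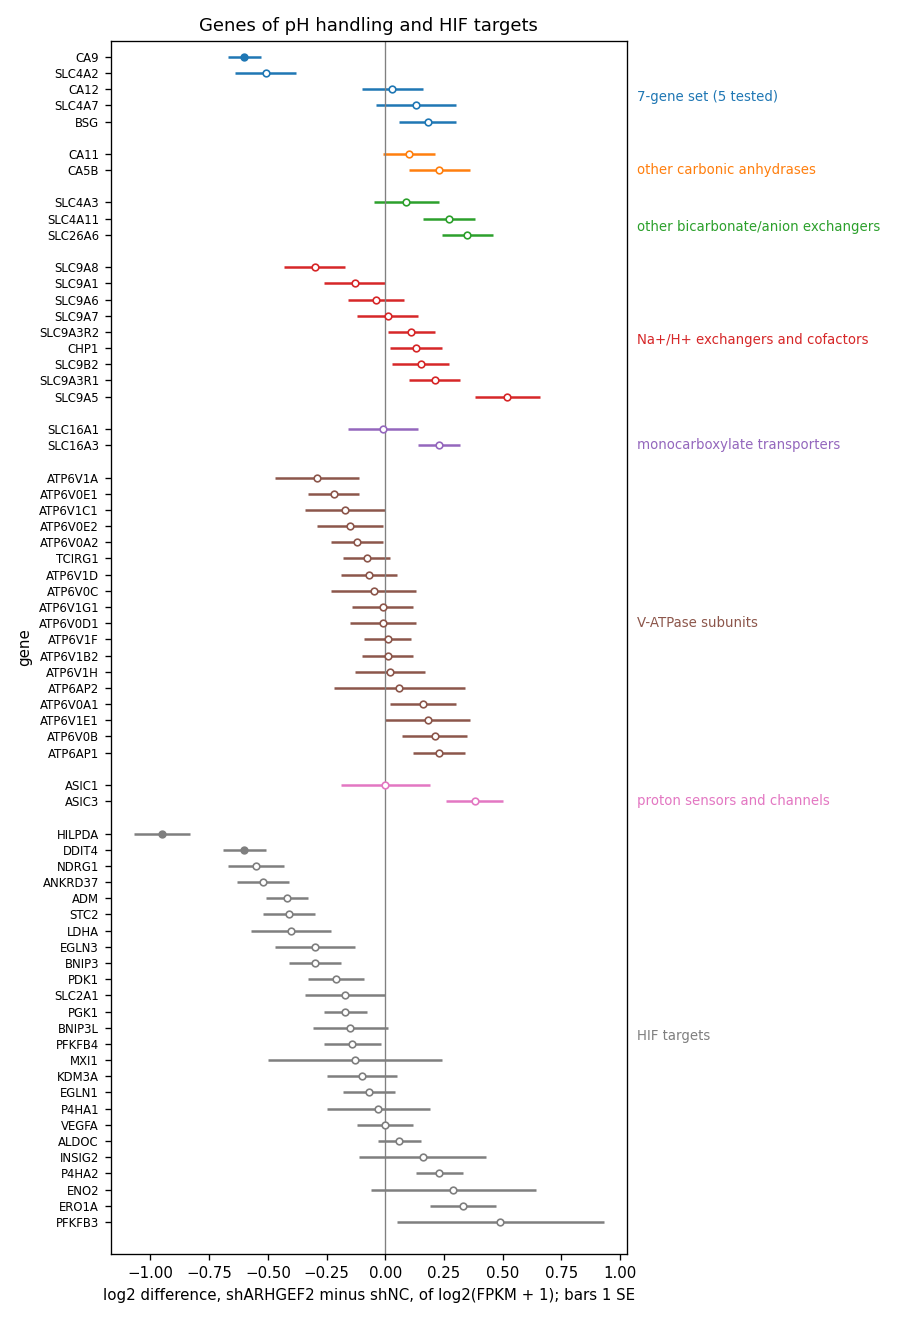
Fitted log2 difference (x axis, shARHGEF2 minus shNC, of log2(FPKM + 1)) of each gene tested (y axis), grouped by role, with bars of 1 SE and filled points for genes called at an adjusted p under 0.05. CA9, HILPDA and DDIT4 are filled, and the 36 genes of the wider pH machinery range from -0.30 to 0.52 with open points.

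Other textbook targets of HIF were described beside CA9. All 25 were listed and tested, and the list was written with the behaviour of HIF targets in these libraries, HILPDA among them, already known, so it is not independent evidence of its direction. The list is a choice and not complete. The lactate transporter SLC16A3, with ACGTG in 1 of its 5 RefSeq promoter windows, was left off it. The shARHGEF2 values of SLC16A3 all lay above its shNC values. The test was passed by 2 genes, both lower in shARHGEF2 (8% of the list, whereas 0.0814% of all genes tested were called lower). HILPDA, which restrains lipid breakdown on lipid droplets, had 11.1, 11.8 and 11.1 FPKM in shNC and 6.38, 4.73 and 5.13 FPKM in shARHGEF2. It fell by 0.95 on the log2(FPKM + 1) scale (SE 0.12, limma adjusted p = 0.0302). DDIT4 had 242, 248 and 213 FPKM in shNC and 154, 155 and 155 FPKM in shARHGEF2. It fell by 0.60 (SE 0.09, limma adjusted p = 0.0395).

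Of the 25 HIF targets, 19 had fitted differences below 0 and 6 above, whereas 6189 and 6102 of all genes tested did. The median was -0.15 beside 0.00 over all genes tested. All shARHGEF2 values lay below the shNC values in 9 (36%, against 9.17% of all genes) and above them in 1, P4HA2 (4%, against 11.3% of all genes). Nothing is read from these counts, because the list was written with the behaviour of HIF targets in these libraries known. NDRG1, a hypoxia-induced growth regulator, had 54.5 ± 5.8 FPKM in shNC and 36.8 ± 4.23 FPKM in shARHGEF2 (SD, n = 3 each; -0.55, SE 0.12, limma adjusted p = 0.117). ANKRD37 had 1.44 ± 0.137 and 0.703 ± 0.128 FPKM (-0.52, SE 0.11, limma adjusted p = 0.120), and ADM, the vasodilator peptide adrenomedullin, 13.6 ± 0.597 and 9.91 ± 0.323 FPKM (-0.42, SE 0.09, limma adjusted p = 0.126). VEGFA, the HIF-induced angiogenic factor, was chosen after its values were seen, and it overlapped between the groups at 7.53 to 9.55 and 8.3 to 9.38 FPKM. The letters ACGTG were found in a window of 14 of the 21 HIF targets with a RefSeq promoter entry, and in a window of 24.9% of all 27305 genes with an entry. These genes were listed as targets of a factor whose element contains these letters, so the comparison is a description. The HILPDA call was lost without shNC replicates 1 or 2 or shARHGEF2 replicates 2 or 3 (limma adjusted p up to 0.116), and the DDIT4 call without any library other than shNC replicate 3 (limma adjusted p up to 0.130).

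Among 10159 genes averaging 1 FPKM or more, the 5 whose log2(FPKM + 1) values followed CA9 most closely over the 6 libraries were ZNF768 (Pearson r 0.997), ARHGEF2 (0.994), RABEP2 (0.994), ZNF672 (0.992) and NOL12 (0.991). Their values share the libraries and the step between the groups, and the correlations are given as a description. ZNF672 was at 20.7 to 22.6 FPKM in shNC and 5.18 to 6.15 FPKM in shARHGEF2, and ZNF768 at 30.2 to 30.9 and 25.7 to 26.1 FPKM, so genes with steps of different size followed CA9 similarly closely.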

How the data were processed

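The authors deposited 1 table of FPKM values for 6 HepG2 libraries (3 shNC, 3 shARHGEF2). Per the labels, libraries were made from poly(A) RNA with dUTP strand marking and molecular identifiers, and the submitters' processing notes name cutadapt 1.9, HISAT2 2.0.4, UMI-tools, StringTie 1.3.4d and the build hg19, without roles. Of 112516 listed transcripts 94.7% were found in GENCODE 29, from which gene positions (GRCh38) and GC content were taken. The deposited columns of fold changes, p-values and q-values hold the authors' own comparison and were not used. Read depth is not given in the sources used here, and the spacing of low FPKM values did not settle it, so no counting interval is given.

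Genes averaging 0.5 FPKM or more (12291 of 27605) were tested on log2(FPKM + 1) with limma 3.58.1 (R 4.3.3, trend and robust estimation, statmod 1.5.0), without a block, and adjusted by the Benjamini-Hochberg method over all of them. The threshold for a call was an adjusted p of 0.05. An exact permutation test of 3 against 3 libraries cannot go below 0.1 and was not used. At most 0.106% of the genes tested had equal values in 2 libraries. The method was tested on simulated data. The members and gene lists were chosen with earlier results of these data known. Named genes are the 7 members, ARHGEF2, the up to 3 genes with the smallest p of each pH list, the HIF targets called with the 5 of smallest p, and the 5 genes most correlated with CA9. Marker lists and neighbours of the members were checked too. Alternatives were a pseudocount of 0.1, other filters, quantile normalization, limma without trend and robust estimation, a replicate block, each library left out and, added after seeing the data, subtraction of a GC content trend (loess, span 0.3). Python 3.11.15, pandas 2.3.3, numpy 2.4.6 and matplotlib 3.10.9 were used.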

Additional observations from a re-analysis of the deposited data

How the results depend on the processing

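The 34 genes called became 1 with no filter beyond a value above 0 (2123 at an unadjusted p under 0.05), 54 with at least 1 FPKM in at least 3 libraries, 19 with quantile normalization, 7 without trend and robust estimation, 57 with the GC trend removed (chosen after seeing the data) and 6 to 102 with a library left out, 102 being without shNC replicate 3 and 6 without shARHGEF2 replicate 3. A replicate block left 0 genes called by limma, 0 HIF targets and 0 of the 7 genes. At an unadjusted p under 0.05 there were 1976 genes with the block and 1678 without it. The residuals of libraries with the same number correlated at r = 0.184, 0.159 and -0.105. Libraries with different numbers were not compared, so whether the libraries are paired was not settled. The knockdown of ARHGEF2 kept its difference of -1.47 but lost its call with the block (limma adjusted p = 0.0716) and with no filter (0.0701). The HIF targets called, 2, became 0 with no filter, 1 (HILPDA) with quantile normalization, 0 without trend and robust estimation and 0 to 2 with a library left out. Of the 7 genes, CA9 was the 1 called, against 0 with no filter, 0 without trend and robust estimation and 0 to 1 with a library left out. The difference of CA9 was -0.64 with the GC trend removed. The wider pH list had 0 genes called under all 13 alternatives. Sign changes were limited, among the named genes that were no members, to ASIC1 (0.00 with quantile normalization, -0.02 with the GC trend removed, -0.14 to 0.23 with a library left out), SLC16A1 (0.02 with the GC trend removed, -0.14 to 0.13) and SLC4A3 (-0.02 to 0.17). With a library left out CA12 ran from -0.05 to 0.13, SLC4A7 from 0.00 to 0.25 and BSG from 0.07 to 0.30. Where the cause of a change is not given by the setting's own construction, the cause was not tested.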

Other observations

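By the annotation terms in the deposited table, 10 listed genes carried carbonate dehydratase activity and 36 carried bicarbonate transport. Of these, 4 and 11 were tested, and CA9, whose fall was known when the genes were chosen, was the 1 called in each (0.277% of all genes tested were called), so nothing is read from either count. Regulation of intracellular pH was carried by 27 listed genes, 14 of them tested and 0 called by limma. An unadjusted p under 0.05 was found for 5 of them (35.7%, against 13.7% of all genes tested), 3 higher and 2 lower in shARHGEF2, and the median log2 difference was 0.04. SLC4A2, a gene of the chosen set, was among the lower ones, so nothing is read from this count either. These terms share genes with the lists described in the report.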
